A study of Caenorhabditis elegans with 4 samples.

Results

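HDA-1 peaks on chromosome II of Caenorhabditis elegans are the sites of that chromosome at which chromatin immunoprecipitation and sequencing (ChIP-seq) found the histone deacetylase HDA-1. They were taken as every peak whose chromosome is given as II in the peak lists. The whole-series list had 2383 such peaks of 14199 in all (16.8%), replicate 1 had 1971 of 11762 (16.8%) and replicate 2 had 1741 of 9901 (17.6%). The series comprised 2 HDA-1 ChIP libraries and 2 input DNA libraries, all from wild-type animals of the standard laboratory strain N2 collected as L3 larvae at 20 °C, a mixed population of males and hermaphrodites. Whole larvae were frozen and ground, so a peak cannot be assigned to a tissue. The chromatin was fixed for 20 minutes in EGS, which links proteins over a long distance, and then for a further 10 minutes in EGS with formaldehyde, so a peak can also mark a place that HDA-1 reaches through other proteins. A rabbit polyclonal antibody purified by affinity was used, and the labels do not say whether the replicates came from separate cultures.

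Histone deacetylases of the class to which HDA-1 belongs remove acetyl groups from histone tails and act within corepressor complexes such as NuRD and Sin3. In C. elegans HDA-1 is required for embryonic development and takes part in the development of the vulva and the gonad. The chromosomes of this nematode have no single point centromere. Their autosomes are divided into a gene-dense centre, rich in conserved and broadly expressed genes, and a pair of arms richer in repeats, in heterochromatin and in young gene families. The left end of II also holds the region at which this chromosome pairs with its homologue in meiosis.

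Each list gives a position on the WS220 (ce10) build and the authors' own score for each peak. The meaning of the score is not stated, and it was used to rank peaks within a list. The lists hold no read counts, so the depth behind a peak is unknown, and the input libraries were not analysed here. The whole-series list is not independent of the replicate lists, and the replicates are therefore given side by side throughout. With 2 libraries of 1 condition there is no contrast between samples to test. Intervals are exact 95% intervals that cover counting error alone, and they treat neighbouring peaks as independent, which makes them too narrow where peaks are grouped.

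Chromosome II spans 15279345 bp, of which 2383 whole-series peaks covered 792 kb (5.19%). The peaks of replicate 1 covered 651 kb (4.26%) and those of replicate 2 covered 486 kb (3.18%). Replicate 1 placed 129 peaks per Mb on II (interval 123 to 135) against 112 on the other 4 autosomes together (109 to 114), a ratio of 1.16. Replicate 2 placed 114 peaks per Mb on II (109 to 119) against 97.8 on the other autosomes (95.4 to 100.2), a ratio of 1.17. The whole-series list had 156 against 136, a ratio of 1.15. II was thus above the pooled other autosomes in each list, but it was not the fullest autosome. On chromosome III the density was 138 for replicate 1 and 124 for replicate 2, with 169 for the whole-series list. On chromosome I the value was 114 in replicate 2, as on II, and 135 in replicate 1. Among the 6 nuclear chromosomes II had rank 4 by density in replicate 1 and rank 3 in both replicate 2 and the whole-series list. These differences between chromosomes were not tested.

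HDA-1 peaks on II were unequally divided between its arms. The arms were taken as the outer 25% of the span at each end (to 3819836 on the left, from 11459509 on the right) and the remaining 50% between them as the centre. The left arm of replicate 1 held 307 peaks, or 80.4 per Mb (interval 71.6 to 89.9), and the right arm 560, or 147 per Mb (135 to 159). The centre held 1104, or 145 per Mb (136 to 153). In that library the left arm thus had 0.56 of the density of the centre, and the right arm 1.01. In replicate 2 the left arm held 383 peaks, or 100.3 per Mb (90.5 to 111), and the right arm 563, or 147 per Mb (135 to 160). The centre held 795, or 104 per Mb (97.0 to 112). There the left arm had 0.96 of the density of the centre and the right arm 1.42. In both replicates the right arm was therefore denser than the left. The intervals cover counting error alone and are too narrow where peaks are grouped, and the difference was not tested. The libraries differed over the centre, which was about as dense as the right arm in replicate 1 and about as dense as the left arm in replicate 2.

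**Figure D1:**
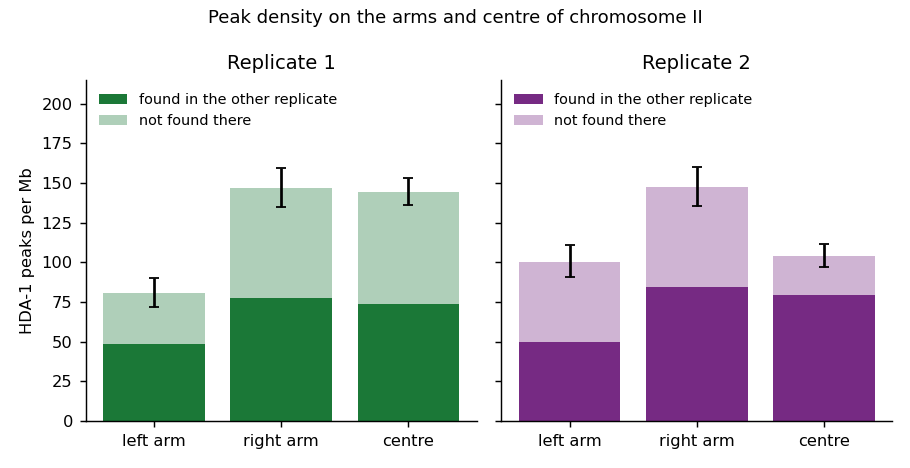
Peaks per Mb (y axis) on the left arm, right arm and centre of chromosome II in each replicate. Dark bars count peaks that overlap a peak of the other replicate by at least 1 bp, light bars count those that do not, and error bars are exact 95% intervals of the total. The right arm reaches 147 peaks per Mb in both replicates, and the light part over the centre is 70.6 peaks per Mb in replicate 1 and 24.9 in replicate 2.

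Since the arms differed from each other, a single ratio of arms to centre hid most of this pattern. Over both arms the log2 density ratio to the centre was -0.35 for replicate 1 and 0.25 for replicate 2, with -0.04 for the whole-series list, so its direction differed between the replicates. For the left arm alone it was -0.85, -0.05 and -0.45, and for the right arm 0.02, 0.50 and 0.28. The left arm was below the centre, and the right arm above it, in each list. Other autosomes were also lopsided. On IV the left arm was the denser one, with a log2 ratio to the centre of 0.05 in replicate 1 and 0.51 in replicate 2, against -0.70 and -0.40 for its right arm. On III the order was that of II, with -0.89 and -0.02 on the left and -0.25 and 0.31 on the right. The right arm of II had the highest ratio of any autosomal arm on the right in each list, a ranking that was not tested.

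Sites found in both replicates had the same left-to-right order. In replicate 1 the peaks that overlapped a replicate 2 peak numbered 48.2 per Mb on the left arm, 77.5 on the right arm and 74.0 in the centre. In replicate 2 the corresponding densities were 49.5, 84.6 and 79.2 per Mb. Peaks without a counterpart were divided otherwise. Replicate 1 had 32.2 such peaks per Mb on the left arm, 69.1 on the right arm and 70.6 in the centre. Replicate 2 had 50.8, 62.8 and 24.9. Shared sites are the same places in both lists, so their densities are alike by construction and the lists can differ only in the rest. The shared sites were less dense on the left arm than on the right arm or in the centre. On the other 4 autosomes the arm-to-centre density ratio of replicate 2 peaks without a counterpart ran between 1.85 and 2.68, and on II it was 2.28.

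Along the chromosome each list had its maximum where the centre meets the right arm, and the lists differed elsewhere. From 5000001 to 11000000, within the centre, replicate 1 held 134 to 168 peaks per 1-Mb bin and replicate 2 held 94 to 114. In the 15 whole bins of 1 Mb the whole-series list held between 93 and 227 peaks, with a median of 152, against a median of 143.5 over 82 bins of the other chromosomes. The fullest bin ran from 11000001 to 12000000 and straddled the border of centre and right arm. Its 227 whole-series peaks stood beside 193 of replicate 1 and 172 of replicate 2, and it was the fullest bin of II in each list. The next were 14000001 to 15000000 with 199 whole-series peaks (138 and 162 in replicates 1 and 2) and 13000001 to 14000000 with 188 (145 and 142). Between them and the maximum lay a trough. The bin from 12000001 to 13000000 had 142 peaks of the whole-series list, 106 of replicate 1 and 108 of replicate 2. The right arm was thus dense in 2 blocks and not evenly.

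The emptiest bins lay at the left. From 1000001 to 2000000 the whole-series list had 93 peaks, replicate 1 had 75 and replicate 2 had 93. The first bin, to 1000000, held 105 (84 and 77), and that from 4000001 to 5000000, just inside the centre, held 118 (103 and 76). Replicate 2 had its lowest count of any whole bin in the last of these. Across the 15 bins, which share the same 2 libraries and are neighbours on 1 chromosome, the counts of the replicates correlated with a Pearson r of 0.53 and a Spearman rho of 0.49. In the 7 bins of the centre alone these were 0.88 and 0.71.

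**Figure D2:**
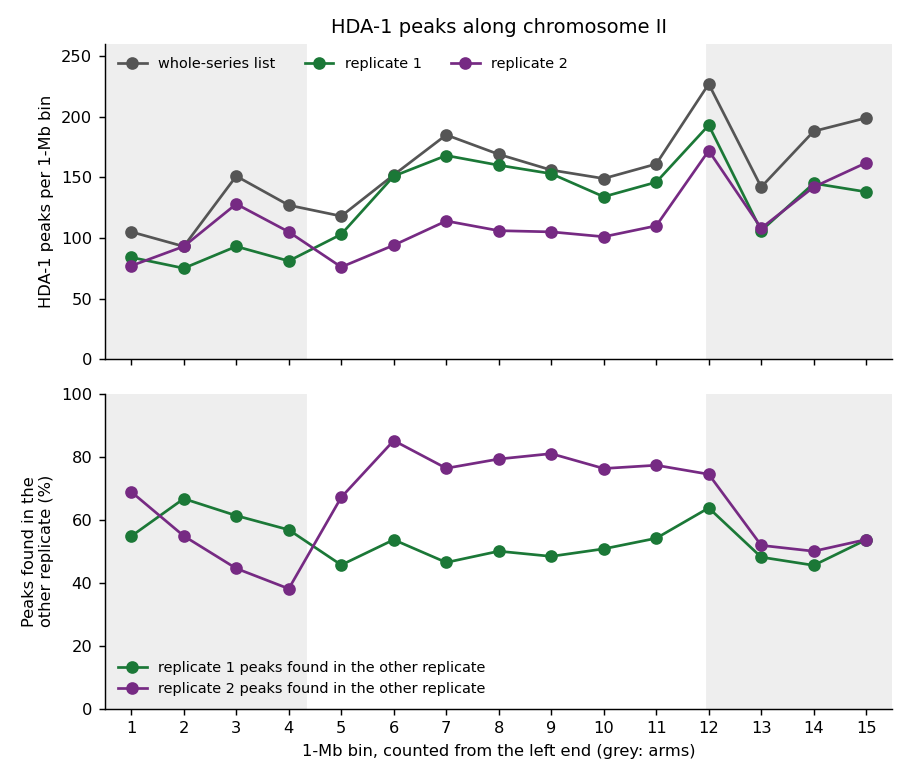
Upper panel, HDA-1 peaks in each whole 1-Mb bin of chromosome II (x axis, bins counted from the left end) in the whole-series list and in each replicate. Lower panel, the percentage of each replicate's peaks in the bin that overlap a peak of the other replicate. Bin 12 has the most peaks in each list (227, 193 and 172), and replicate 1 lies above replicate 2 in bins 5 to 12 and below it in bins 2 to 4.

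The balance of the replicates changed from bin to bin. The highest ratios of replicate 1 to replicate 2 peaks were 1.61 from 5000001 to 6000000 (151 against 94 peaks), 1.51 from 7000001 to 8000000 (160 against 106) and 1.47 from 6000001 to 7000000 (168 against 114). The lowest were on the left arm, with 0.73 from 2000001 to 3000000 (93 against 128), 0.77 from 3000001 to 4000000 (81 against 105) and 0.81 from 1000001 to 2000000 (75 against 93). Median scores lay close together over arms and centre. The median score of replicate 1 peaks was 8.89 on the left arm, 8.06 on the right arm and 8.79 in the centre, and that of replicate 2 peaks was 8.43, 8.89 and 8.63.

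The replicates were next compared site by site, with an overlap of at least 1 bp taken as the same site. Replicate 1 had 1971 peaks on II, and 1045 of them (53.0%, interval 50.8 to 55.2%) met a replicate 2 peak, against 51.5% over all chromosomes. Replicate 2 had 1741, and 1117 of them (64.2%, 61.9 to 66.4%) met a replicate 1 peak, against 65.2% over all chromosomes. Both shares on II were near those of the whole series. Within II the share varied with place in both replicates, more widely in replicate 2 and in the opposite order in replicate 1. In replicate 2 it was 49.3% on the left arm (44.2 to 54.5%), 57.4% on the right arm (53.2 to 61.5%) and 76.1% in the centre (73.0 to 79.0%). In replicate 1 the shares were 59.9% on the left arm (54.2 to 65.5%), 52.9% on the right arm (48.6 to 57.1%) and 51.2% in the centre (48.2 to 54.2%). The bin from 3000001 to 4000000 had the lowest share in replicate 2, at 38.1%, and that from 5000001 to 6000000 the highest, at 85.1%. In the fullest bin, from 11000001 to 12000000, the shares were 63.7% in replicate 1 and 74.4% in replicate 2.

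Higher-scoring peaks recurred in larger shares. From the lowest-scoring to the best-scoring 25% of replicate 1 peaks on II, the share found in replicate 2 was 29.9%, 35.7%, 57.6% and 88.8%. In replicate 2 the shares found in replicate 1 were 44.1%, 54.9%, 63.9% and 93.6%. Peaks with a counterpart were also wider, which the 1-bp rule favours in itself. In replicate 1 their median width was 330 bp, against 209 bp for those without, and in replicate 2 it was 256 bp against 186 bp. Peaks that mutually shared their longest overlap formed 1011 pairs, in which the midpoints differed by a median of 47 bp, a distance that the requirement of overlap limits in itself. Scores of these pairs correlated with a Spearman rho of 0.55, a description over neighbouring sites of the same 2 libraries. The rho was 0.55 on the left arm, 0.57 on the right arm and 0.56 in the centre. The replicate 1 peak was the wider one in 703 of the 1011 pairs (69.5%), with a median width ratio of 1.24, and the ratio was 1.12 on the left arm, 1.15 on the right arm and 1.31 in the centre.

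**Figure D3:**
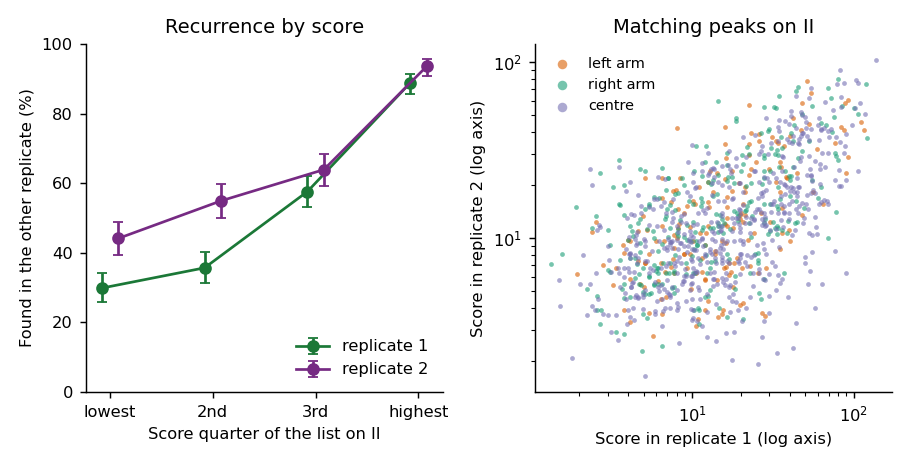
Left, the percentage of peaks on chromosome II found in the other replicate (y axis) for each 25% of a replicate's peaks by score (x axis, low to high), with exact 95% intervals. Right, the scores of 1011 matching pairs of peaks in replicate 1 (x axis) and replicate 2 (y axis) on log axes, coloured by arm and centre. The share found reaches 88.8% and 93.6% in the best-scoring peaks, and the pairs of arms and centre lie over each other.

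The whole-series list sorted the sites of II by support. Of its 2383 peaks, 1012 (42.5%, interval 40.5 to 44.5%) overlapped peaks of both replicates, against 41.9% over all chromosomes. A further 658 (27.6%, against 28.9%) overlapped replicate 1 alone, 458 (19.2%, against 18.0%) replicate 2 alone, and 255 (10.7%, against 11.2%) neither. The median score was 18.9 for sites in both and 4.64 for sites in neither, and their median widths were 396 and 164 bp. The classes lay in different places. Sites in replicate 2 alone were on the left arm in 31.0% of cases, on the right arm in 40.2% and in the centre in 28.8%. Sites in replicate 1 alone were on the left arm in 10.5%, on the right arm in 26.7% and in the centre in 62.8%. Sites in both were divided as 17.2%, 28.5% and 54.3%. The whole-series list lacked 286 replicate 1 peaks of II (14.5%, against 14.3% over all chromosomes) and 141 replicate 2 peaks (8.10%, against 8.10%), and 0 of either had a counterpart in the other replicate. It also lacked the peaks at the tips of the chromosome. In replicate 1 a peak covered bases 1 to 217 (score 11.3) and another bases 15279089 to 15279345 (score 7.14), the ends of II, while the outermost replicate 2 peaks lay at 18912 to 19198 and 15277845 to 15278288.

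The strongest sites of II were spread over its whole length. The 10 best-scoring whole-series peaks on II all overlapped both replicates, and 2 lay on the left arm, 3 on the right arm and 5 in the centre. Overlap with both was part of the rule by which sites were named, although no better-scoring peak on II had to be passed over. The best lay from 4047647 to 4048303, with a score of 87.7, and ranked 1 among the peaks of II in each replicate (scores 137 and 103). Another of the 10 stood close to it, from 4049512 to 4050163, 1208 bp away, with ranks 7 and 25 in replicates 1 and 2. In the centre the others were 9718671 to 9719065 (ranks 4 and 40), 5358133 to 5358607 (ranks 9 and 6) and 7870565 to 7871186 (ranks 24 and 6). The order of these sites thus differed between the replicates. That they stood high in both follows in part from how they were picked, by score in a list not independent of the replicates.

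On the right arm the strongest sites were 14154143 to 14154839 (ranks 10 and 40), 12778356 to 12778775 (ranks 52 and 11) and 14561610 to 14562140 (ranks 3 and 8). On the left arm they were 3523601 to 3523924 (ranks 5 and 74) and 254742 to 255534 (ranks 22 and 25). The last of these stood alone in the whole-series list, with no other peak of that list for 33.0 kb to its left and 30.2 kb to its right. Replicate 2 had 1 peak in each of these stretches, with scores of 10.7 and 5.46, and replicate 1 had none. Of the 239 best-scoring 10% of whole-series peaks on II, with scores of 34.1 or more, 236 (98.7%) were found in both replicates. Their median width was 539 bp, against 246 bp for all whole-series peaks on II, and wide peaks meet the 1-bp rule more readily. The scores also come from a list that is not independent of the replicates, so this share is partly built in. Its value over all chromosomes is not given here. The 239 peaks lay on the left arm in 15.5% of cases, on the right arm in 25.5% and in the centre in 59.0%, against 18.6%, 30.8% and 50.7% of all whole-series peaks on II.

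HDA-1 peaks on II were narrow, with a tail of broad ones. Replicate 1 peaks had a median width of 253 bp and replicate 2 peaks one of 220 bp. For whole-series peaks it was 246 bp, and the middle 50% of whole-series widths ran from 182 to 392 bp. No peak was narrower than 146 bp. Peaks of 800 bp or more made up 4.41% of replicate 1 peaks on II (87 peaks), against 3.78% over all chromosomes, and 1.32% in replicate 2 (23 peaks), against 1.59%. In the whole-series list they numbered 115 (4.83%, against 4.08% over all chromosomes), and 113 of these overlapped both replicates. A wide peak meets the 1-bp rule more readily, so this count is partly built in. Its share over all chromosomes is not given here. Wider peaks tended to score higher, with a Spearman rho between width and score of 0.60 in replicate 1 and 0.49 in replicate 2 across the peaks of each list. The median whole-series width was 225 bp on the left arm, 242 bp on the right arm and 258 bp in the centre.

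The 5 widest sites showed how differently the lists drew a broad region. The widest, from 3466218 to 3469552 on the left arm, was 3335 bp and had a low score of 2.56. Replicate 2 called it as 1 peak of 3352 bp, and replicate 1 as 3 peaks that together covered 2990 bp. From 6827195 to 6829653, in the centre, the whole-series peak was 2459 bp with a score of 58.2. Here replicate 1 had 1 peak of 3037 bp and replicate 2 had 3 peaks covering 1182 bp. The site from 3966773 to 3969221 (2449 bp) was 1 peak of 2442 bp in replicate 2 and 4 peaks covering 1763 bp in replicate 1. From 11618760 to 11620905 (2146 bp) replicate 1 had 1 peak of 2584 bp and replicate 2 had 2 covering 1189 bp. The support was weakest from 11214033 to 11216613 (2581 bp), where replicate 2 had 1 peak of 2557 bp and replicate 1 a single peak of 146 bp. Over all of II, 97 replicate 1 peaks overlapped 2 or more replicate 2 peaks, and 39 replicate 2 peaks overlapped 2 or more replicate 1 peaks. The difference between these counts was not tested.

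Neighbouring peaks on II were often close together. The distance from the edge of a peak to the next was under 1 kb for 35.4% of distances in replicate 1 (33.0% over all chromosomes). In replicate 2 it was so for 31.5% (28.7%), and in the whole-series list for 37.7% (35.4%). The median distance was 2302 bp in replicate 1 and 3069 bp in replicate 2, with 1913 bp for the whole series. There, 358 of 2382 distances on II (15.0%) were under 200 bp, and such neighbours can be parts of 1 region called in pieces. The share of such distances over all chromosomes is not given here. Sites found in both replicates were spaced more widely when taken alone, with a median of 5825 bp, and 23.5% of their distances were under 1 kb.

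Tight groups were defined as runs of 5 or more peaks in which each distance to the next was under 1 kb. Replicate 1 had 46 runs on II with 310 peaks, or 15.7% of its peaks there (interval 14.1 to 17.4%), against 13.1% over all chromosomes and 12.4% on the other autosomes (11.7 to 13.2%). Replicate 2 had 28 runs with 180 peaks, or 10.3% (8.95 to 11.9%), against 7.20% over all chromosomes and 6.87% on the other autosomes (6.27 to 7.51%). The whole-series list had 57 runs with 388 peaks, or 16.3% (14.8 to 17.8%), against 14.0% over all chromosomes and 14.1% on the other autosomes (13.4 to 14.9%). Per Mb, II had 3.01 runs in replicate 1 and 1.83 in replicate 2, the highest rank among the 6 chromosomes in both. Chromosome III was close behind, with 2.90 and 1.67. For the whole series the order was the other way, with 3.73 on II and 3.85 on III. Runs held 13.5% of the peaks of III for replicate 1, 8.85% for replicate 2 and 14.9% for the whole series. With the largest run of each list set aside, the shares on II were 15.0%, 9.77% and 15.4%. Peaks of a run are counted together, so the intervals understate the error, and the difference between chromosomes was not tested.

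Like the peaks, runs were more numerous per Mb on the right arm than on the left in each list. In replicate 2 they were sparsest in the centre, unlike its peaks. The counts were small, with 5 runs on the left arm and 13 on the right in replicate 1, and 7 and 12 in replicate 2. Replicate 1 had 1.31 runs per Mb on the left arm, 3.40 on the right arm and 3.67 in the centre. Replicate 2 had 1.83, 3.14 and 1.18, and the whole-series list had 2.88, 5.50 and 3.27. All 57 whole-series runs overlapped a replicate 2 peak and 1 lacked a replicate 1 peak. In 46 of the 57 at least 2 peaks were found in both replicates. Of all whole-series peaks on II 42.5% were found in both, so a run of 5 or more peaks can readily hold 2. These counts of runs over all chromosomes are not given here. Peaks inside runs were found in both replicates in 51.5% of cases (interval 46.4 to 56.6%), against 40.7% for peaks outside runs (38.5 to 42.9%), and their median score was 10.5 against 9.03. Peaks inside runs were also wider, with a median of 295 bp against 241 bp, which the 1-bp rule favours in itself. The intervals treat peaks of the same run as independent. The 2 shares over all chromosomes are not given here, and their difference was not tested.

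The 5 runs with the most peaks differed in how fully they were covered. The longest ran over 18854 bp in the centre, from 6820402 to 6839255, with 25 whole-series peaks that covered 64.8% of it. Of these 12 were found in both replicates, and replicate 1 had 18 peaks there and replicate 2 had 19. The next ran from 10541969 to 10559376, with 21 peaks over 70.8% of 17408 bp, and 13 of them were in both replicates. It held the longest run made of such sites alone, 8 peaks from 10545622 to 10553768. The third, from 11723938 to 11731746 on the right arm, had 14 peaks over 55.2% of 7809 bp, 9 of them in both. The others were 8740370 to 8749296 in the centre, with 12 peaks (6 in both), and 1236029 to 1244717 on the left arm, with 11 peaks (7 in both). The last lay in the emptiest 1-Mb bin of II, which held 24 peaks in runs among its 93.

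Windows of 20 kb gave a like picture when peaks were counted by their midpoints. The fullest, from 6824340 to 6844339, held 26 whole-series peaks that covered 61.4% of it, with 18 in replicate 1 and 19 in replicate 2. Its scores ran from 2.79 to 58.2. The second, from 11719517 to 11739516, held 23 peaks over 35.8% of its length (18 and 16 in the replicates), and 14 were found in both. Its widest peak was 506 bp against 2459 bp in the first, while its median width was 324 bp against 285 bp. The window from 10541969 to 10561968 held 21 peaks (18 and 16), that from 14231995 to 14251994 held 21 (14 and 17), and that from 3948703 to 3968702 held 18 (14 and 14). In the order named, the windows had 12, 14, 13, 9 and 8 sites found in both replicates. Of all whole-series peaks on II 42.5% were such sites, so windows picked for the most peaks hold many of them.

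**Figure D4:**
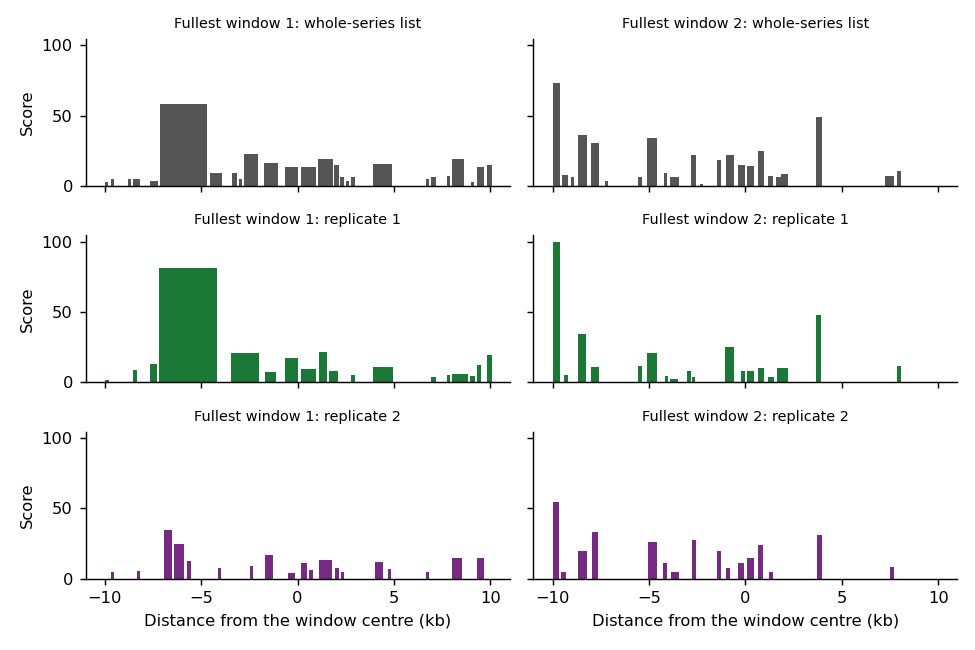
Peaks in the 2 fullest 20-kb windows of chromosome II (left, 26 whole-series peaks in the centre; right, 23 on the right arm). The x axis is the distance from the window's centre in kb, each bar spans a peak, and its height is the authors' score in that list. The first window is dominated by 1 wide block in replicate 1 that replicate 2 splits into 3 narrower peaks, and the second has no whole-series peak wider than 506 bp.

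In steps of 100 kb, chosen after the values were seen, the whole-series list had a median of 14 peaks and a range of 2 to 51 over 152 steps. The fullest steps were 6800001 to 6900000 with 51 peaks, 11700001 to 11800000 with 47 and 10500001 to 10600000 with 39. The maximum of the bin from 11000001 to 12000000 was therefore partly local, since 47 of its 227 peaks fell in 1 step. In that step 30 of the 47 were found in both replicates.

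Long stretches without a peak were more numerous per Mb on the left arm than on the right in each list, and their number in the centre differed between the replicates. The whole-series list had 86 stretches of 30 kb or more between neighbouring peaks on II (3.61% of distances, against 4.31% over all chromosomes). Together they made up 3.86 Mb, or 25.2% of the chromosome. They took up 41.3% of the left arm, 14.4% of the right arm and 22.7% of the centre, with 33, 13 and 40 stretches. In the replicates such stretches numbered 104 (5.28% of distances, against 6.29%) and 109 (6.26%, against 8.50%). Replicate 1 had 42 on the left arm (11.0 per Mb), 22 on the right arm (5.76 per Mb) and 40 in the centre (5.24 per Mb). Replicate 2 had 28 on the left arm (7.33 per Mb), 21 on the right arm (5.50 per Mb) and 60 in the centre (7.85 per Mb). The left arm was thus above the centre in replicate 1 and not in replicate 2. In the 1-Mb bins, 56.4% of the bin from 1000001 to 2000000 lay in such stretches, against 3.94% of that from 11000001 to 12000000.

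Of the 86 stretches, 44 held no peak of either replicate. The other 42 held 36 replicate 1 peaks and 28 replicate 2 peaks that the whole-series list lacked, with scores of at most 11.6 and 11.7. The longest stretch ran from 2059658 to 2155479 on the left arm (95.8 kb) and held no peak in either replicate. The second, from 1932186 to 2018605 (86.4 kb), held 3 replicate 2 peaks, the best with a score of 3.88. The third, from 1561520 to 1644987 (83.5 kb), held 1 replicate 1 peak and 2 replicate 2 peaks. The fourth, from 1736684 to 1819964 (83.3 kb), was empty in both. The fifth, from 5105382 to 5180815 (75.4 kb), was the longest in the centre and was also empty in both. The 100-kb steps from 1500001 to 2000000 held 5, 7, 2, 2 and 4 whole-series peaks, against 6, 14, 20, 22 and 11 in those from 1000001 to 1500000. Between sites found in both replicates the longest stretch was 160 kb, from 3209641 to 3370118 on the left arm.

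**Figure D5:**
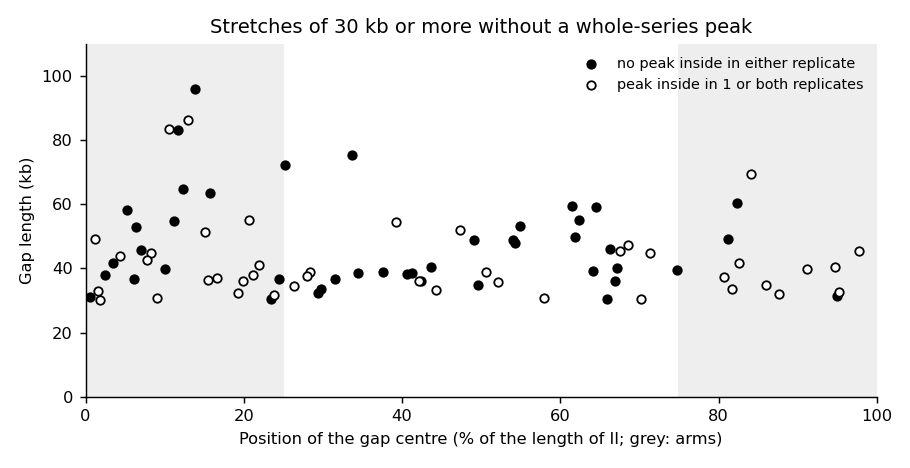
Length in kb (y axis) of the 86 stretches of 30 kb or more without a whole-series peak, against the position of their centre as a percentage of the length of chromosome II (x axis; grey marks the arms). Filled points are the 44 that hold no peak in either replicate, open points those with a peak inside in at least 1 replicate. The 4 longest points, between 83.3 and 95.8 kb, lie on the left arm.

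Isolated peaks on II had scores close to those of crowded ones. The 129 whole-series peaks (5.41%) with no other within 10 kb had a median score of 9.58 and were found in both replicates in 39.5% of cases (interval 31.0 to 48.5%). The 1353 peaks (56.8%) with a neighbour under 1 kb away had a median score of 9.40 and were found in both in 45.1% (42.4 to 47.8%). Isolated peaks were narrower, with a median width of 235 bp against 259 bp. The shares of isolated and crowded peaks over all chromosomes are not given here, so these values do not set II apart. The genes and the sequence at these positions were not analysed here, since no annotation of the WS220 build was used.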

How the data were processed

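BWA and ce10 are named in the submitters' processing notes. WormBase WS220 is the build and MACS the peak caller per the file headers. The MACS version, threshold and control library are not given in the sources used. The deposited score of each peak is the authors' own, and its scale is not stated. The ChIP replicates have separate lists, and how the list of the whole series was made is not stated.

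Peaks on II were counted by midpoint. The span of each chromosome was the largest peak end over the 3 lists. Percentages have exact Clopper-Pearson intervals and counts exact Poisson intervals. Overlap meant at least 1 bp. No test was made: peaks, bins and chromosomes of the same 2 libraries are not replicates. The members, runs, windows and gaps were chosen with earlier results of these data known. Sites were named by rule: the 10 best-scoring whole-series peaks found in both replicates, the 5 widest peaks, fullest windows, largest runs and longest gaps, and the 3 fullest, 3 emptiest and 3 most unbalanced bins in each direction. The lone positions of the chromosome tips, the 100-kb steps and the extremes of recurrence by bin were chosen with their values in view. The code was tested on simulated lists. Software was Python 3.11.15 with SciPy 1.17.1, pandas 2.3.3, NumPy 2.4.6 and, for figures, matplotlib 3.10.9. Gene starts and sequence were not analysed, because the gene table given is on WBcel235, and builds were not mixed.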

Additional observations from a re-analysis of the deposited data

How the results depend on the processing

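Of 59 alternative values for II, 31 moved by less than the spread of the replicates, the counting interval or 1.5 times a count, 27 moved by more and 1 reversed. That spread comes from the same 2 replicate values that serve as alternatives, so the count of 31 does not measure stability. The left-arm log2 ratio counted as unmoved at both -0.85 and -0.05, around -0.45 with a spread of 0.56. The reversed value was the arm-to-centre log2 ratio, at 0.25 without replicate 1 (replicate 2 alone) and -0.35 without replicate 2, against -0.04. The left arm stayed below the centre (-0.85 to -0.05) and the right arm above it (0.02 to 0.50) with each replicate alone. With each replicate alone, density ran from 114 to 129 peaks per Mb, the log2 ratio to other autosomes from 0.21 to 0.22, the fullest-to-emptiest bin ratio from 2.26 to 2.57, median width from 220 to 253 bp, median distance from 2302 to 3069 bp, distances under 1 kb from 31.5 to 35.4%, runs from 28 to 46 and long gaps from 104 to 109. The better-scoring 50% of the whole-series list gave 78.1 peaks per Mb, a log2 ratio to other autosomes of 0.16, a width of 338 bp and a distance of 5142 bp (medians), 23.7% of distances under 1 kb, 9 runs and 141 long gaps. Merging peaks closer than 1 kb gave 97.1 per Mb, a log2 ratio of 0.15 and a bin ratio of 2.05. Runs numbered 29 with distances under 500 bp and 92 under 2 kb, and long gaps 195 at 20 kb or more and 21 at 50 kb or more, as those definitions require. With midpoints within 100 bp, 39.5% of replicate 1 peaks, 44.7% of replicate 2 peaks and 30.8% of whole-series peaks recurred; with 50% of the shorter peak, 61.6% of replicate 2 peaks; in the better-scoring 50% of each list, 55.4% of replicate 1 peaks. Replicate 1 was also cut to the number of replicate 2 peaks, an alternative chosen after seeing the data. Its log2 arm ratios were then -0.80 on the left and 0.02 on the right. Uncut they were -0.85 and 0.02, against -0.05 and 0.50 in replicate 2. The cut was made over all chromosomes and not on II alone. Beyond the alternatives' own construction, the cause was not tested. No paired analysis was possible because no value of the inputs, which carry the same numbers as the ChIP replicates, was analysed here. Depth is unknown.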
